A study of Rattus norvegicus with 2 samples.

Results

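Mitochondrial ribosomal proteins, encoded by the Mrpl genes (large subunit) and Mrps genes (small subunit), were followed across the 2 arrays of a study of rat dental papilla cells treated with melatonin. Members were all probes outside the controls whose RefSeq accession maps to a rat symbol starting with Mrpl or Mrps and a number. This gave 66 of the 15168 genes with a symbol on the array, 42 of the large and 24 of the small subunit, read by 77 probes in 149 spots. The dental papilla is the mesenchyme inside a tooth germ, and its outer cells become odontoblasts, which lay down dentin. Both groups were primary rat cells from postnatal day 1 to 3, used at passage 3 to 4 and held for 3 days in odontogenic induction medium (OS), which contained 8% serum, 0.1 mM dexamethasone, β-glycerophosphate (10 mM) and 0.2 mM ascorbic acid. The control group received OS alone and the other received OS with 10 nM melatonin, the pineal hormone. Each group has 1 single-colour Agilent array, and the sources used here do not say how many cultures or animals an array pools. Both sample titles end in n12(3), which no label explains. The values therefore carry no error between cultures and allow no test between the groups, and a ratio describes these 2 arrays alone.

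The mitochondrial ribosome sits inside the mitochondrion and makes the few proteins that mitochondrial DNA encodes, all of them subunits of the respiratory chain and ATP synthase. Its RNAs come from mitochondrial DNA, but all of its proteins are coded in the nucleus, made in the cytosol and imported. The large subunit forms the peptide bond and holds the exit tunnel, and the small subunit binds the messenger RNA and decodes it. Melatonin is widely studied for its actions at mitochondria.

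Of 30359 usable probes, 55.3% were well above background with OS and 48.4% with melatonin, and 0 spots were saturated. All 12 papilla mesenchyme markers on the array (Vim, Msx1, Pax9, Lhx8 and others) passed the background limit on both arrays. Of 6 odontoblast markers, 4 passed with OS and 3 with melatonin. Nes, Alpl and Ibsp passed on both arrays and Sp7 with OS alone, whereas Dspp and Dmp1, the defining genes of mature odontoblasts, passed on neither. Of markers of other cells, 7 of 8 for macrophages passed with OS and 6 with melatonin, and 2 of 7 and 1 of 7 for epithelium. The macrophage genes Lyz2 (log2 ratio -2.47, the lowest of all measured genes), Laptm5 (-0.78) and Cd68 (-0.61) and the red cell gene Hbb (-1.73) were lower with melatonin. The other macrophage markers measured on both arrays did not share this fall, with Csf1r at 0.20, Aif1 at 0.072 and Cd14 at -0.069. The summed linear levels of the macrophage markers measured on both arrays were 3.48 with OS and 2.54 with melatonin. The part of these cells in the values below was not tested. Levels are given as log2 signal minus the 75th percentile of the array, so 0 marks a probe at that percentile. A ratio is the difference of these levels, the melatonin array minus the OS array. Probes bind with different strength, so levels are compared between the arrays for 1 gene and genes are not ranked by level. Levels of several genes are used only in the sums over marker lists, where bright probes weigh most, and to pick genes with a level like that of Mrpl21.

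The mitoribosomal genes were measured almost completely. All 42 large subunit genes and 22 of 24 small subunit genes were well above background on both arrays, 64 genes in all. Mrps2 passed the limit with OS (signal 36.9) and missed it with melatonin (16.2), and the detection floor of the melatonin array left no fold to give. Mrps18b, a member of the S18 group of proteins, passed on neither array (signals 22.8 and 12.8).

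As a family these genes had nearly the same level on both arrays. The median log2 ratio over the 64 measured members was 0.072 (1.05-fold), beside 0.039 over all 8231 measured genes. Of the 64 members 43 (67.2%) had a ratio above 0, against 57.6% of all measured genes, and 39 lay above the median of all genes. Members within 1.5-fold numbered 60, or 93.8%, against 95.3% of all genes. At least 1.5-fold higher were 2 members, against 2.03% of all genes, and at least 1.5-fold lower were 2, against 2.64%. The member that stood outside this band most was Mrpl21, and it was the only member past 2-fold in either direction.

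**Figure D1:**
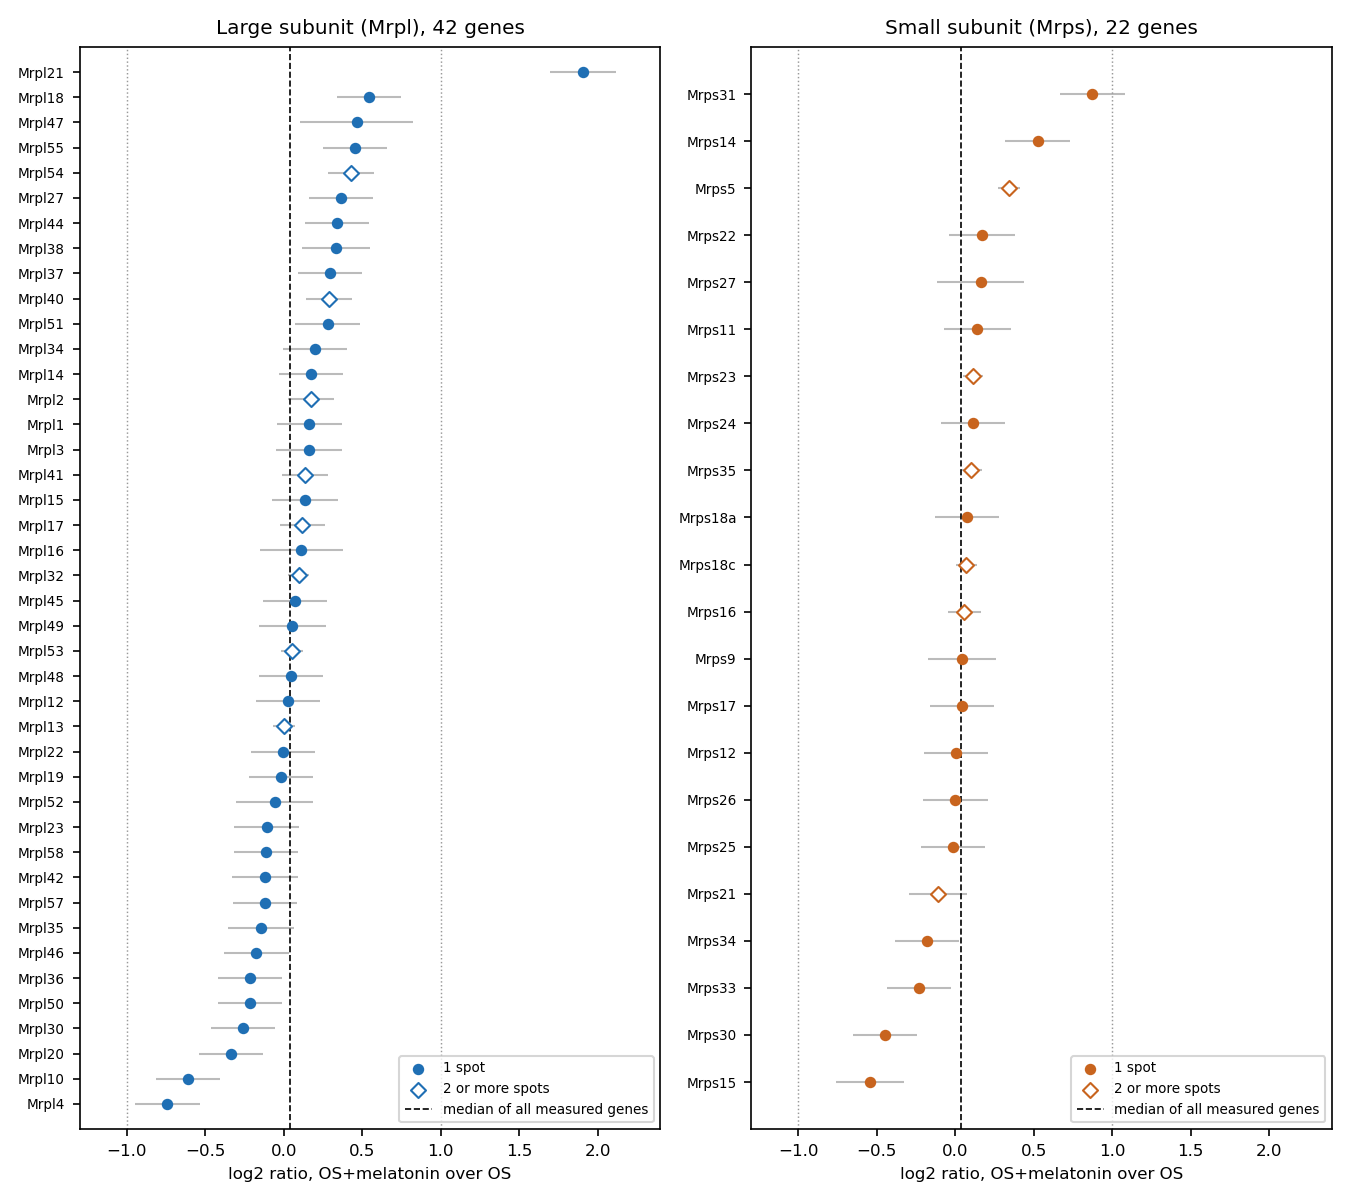
Log2 ratio of the melatonin array over the OS array (horizontal axis) for each measured mitoribosomal gene, large subunit left and small subunit right; grey bars are 1 error of the ratio as estimated by the scanner software, filled circles are genes read by 1 spot and open diamonds genes read by 2 or more. Mrpl21 lies at 1.91, and every other member lies between -0.74 and 0.87, inside the dotted 2-fold lines.

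Mrpl21 is the mitochondrial counterpart of bacterial ribosomal protein L21, a protein of the large subunit. Its single probe gave a processed signal of 135 with OS and 389 with melatonin, with software errors of 14.2 and 39.3. The levels were -1.66 and 0.24, so the probe was dim on the OS array and near the 75th percentile on the other. The log2 ratio was 1.91 (3.75-fold higher with melatonin), with a software error of 0.21 that covers the reading of the spot alone. Before any scaling the signal was already 2.88-fold higher.

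Among all 8231 measured genes Mrpl21 ranked 2 in ratio. At least 2-fold higher were 21 genes (0.255%), so the 1 member of 64 is not a result about the family, and 0 members were at least 2-fold lower, against 0.705% of all genes. Its distance from the median of the other 63 members was 1.84, and the next member, Mrps31, lay 1.03 below it. Of 868 genes read by 1 spot with a mean level within 0.5 of that of Mrpl21, 8 were 2-fold higher (0.922%) and 8 were 2-fold lower. Mrpl21 itself is counted among the 868 and among those higher. The ratio rests on 1 spot of 1 probe, so no second reading of Mrpl21 exists on these arrays.

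Neither array marked the Mrpl21 spot as an outlier or as saturated. Its local background was 21 (OS) and 18 (melatonin), far below its median pixel values of 207 and 487.5. The 203 measured spots within 10 rows and 10 columns of it had a median log2 ratio of 0.17, above the 0.039 over all measured spots. Of these neighbouring spots 3 (1.5%) were at least 2-fold higher, against 0.544% of 23697 measured spots over the array, and the highest stood at 1.53. Both measures were thus higher around Mrpl21 than over the array, and the part of its position in the ratio was not tested.

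The genes on either side of Mrpl21 in the rat genome had nearly equal levels on both arrays. Ighmbp2, a helicase gene, stood at -1.56 with OS and -1.59 with melatonin, a log2 ratio of -0.028. Cpt1a, which encodes the enzyme that lets long-chain fatty acids enter mitochondria, had a ratio of 0.083. Tesmin, the next gene beyond Cpt1a, had a ratio of -0.029. These 3 measured neighbours therefore lay within 1.06-fold, each by 1 probe. The next genes outward, Mrgprd and Mrgprf beyond Ighmbp2 and Gal beyond Tesmin, were not measured on both arrays.

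**Figure D2:**
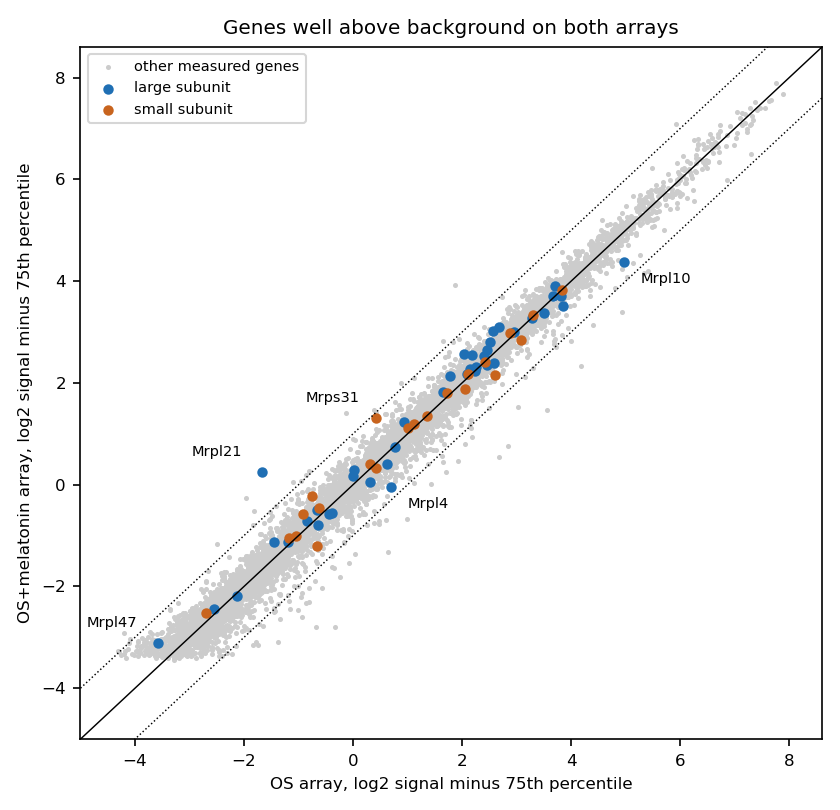
Level on the OS array (horizontal axis) against level on the melatonin array (vertical axis), both as log2 signal minus the 75th percentile of the array, for all genes well above background on both arrays (grey) and for large and small subunit members (colours); the solid line marks equality and dotted lines 2-fold. Members follow the diagonal over the whole range of signal, and Mrpl21 (-1.66 and 0.24) lies beyond the upper dotted line.

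The large and small subunits were compared by their median ratios, with no test. The median was 0.084 over 42 large subunit genes, with quartiles at -0.11 and 0.26, and 0.065 over 22 small subunit genes, with quartiles at -0.013 and 0.13. The difference of the medians was 0.019. Without Mrpl21 the large subunit median was 0.073 and the difference 0.0080. Ratios above 0 were found in 27 of 42 large and 16 of 22 small subunit genes.

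Symbols do not always tell the subunit. The proteins of Mrps30 and Mrps18a are known to sit in the large subunit despite their names. Moving both gave medians of 0.074 over 44 large subunit genes and 0.065 over 20 small subunit genes. The SD of the ratios was 0.39 in the large subunit by symbol, 0.27 in it without Mrpl21 and 0.29 in the small subunit. The middle of the distribution was wider in the large subunit also without Mrpl21, with quartiles at -0.11 and 0.20 against -0.013 and 0.13. The subunits were not read alike. Probes with repeated spots read Mrps5, Mrps16, Mrps18c, Mrps23 and Mrps35 in the small subunit, but only Mrpl13, Mrpl32 and Mrpl53 in the larger list. The part of this in the widths was not tested.

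Among the large subunit genes after Mrpl21, the next highest ratio was that of Mrpl18, a protein of the central protuberance. It stood at 2.03 with OS and 2.58 with melatonin, a log2 ratio of 0.54 (1.46-fold). Mrpl47 had a ratio of 0.47, but its levels of -3.59 and -3.12 lay close to the detection floors of -4.37 and -3.47, and its software error was 0.36. Mrpl55 stood at 2.56 and 3.02 (ratio 0.46, 1.37-fold). These values lie above the rest of the subunit and inside the 2-fold range.

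Mrpl54, a protein with no bacterial counterpart, stood at 2.67 and 3.10, and its 2 probes were both higher on the melatonin array, with ratios of 0.39 and 0.47. Mrpl27, the counterpart of a bacterial protein near the peptidyl transferase centre, had a ratio of 0.36 from levels of 2.19 and 2.55. Mrpl44, which is related to RNA-cutting enzymes of the RNase III family, had a ratio of 0.34, Mrpl38 had 0.33, and Mrpl37 had 0.29. Of these, only Mrpl54 was read by more than 1 probe.

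At the low end of the large subunit was Mrpl4, whose bacterial counterpart lines the exit tunnel. Its level was 0.70 with OS and -0.047 with melatonin, a log2 ratio of -0.74 (1.67-fold lower). Mrpl10, which anchors the stalk that recruits translation factors, stood at 4.97 and 4.37, a ratio of -0.61 (1.52-fold lower). That value comes from its bright probe. The other Mrpl10 probe failed the background limit on both arrays and had a ratio of 1.51, and averaging both turned the gene's ratio to 0.45. Mrpl12, which forms the stalk on Mrpl10, had nearly equal levels of 2.23 and 2.26.

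Mrpl20, the counterpart of an early-assembling bacterial protein, stood at 3.86 and 3.52 (ratio -0.34, 1.26-fold lower). Mrpl30 stood at 0.32 and 0.058 (ratio -0.26), Mrpl50 at 0.63 and 0.41 (-0.21) and Mrpl36 at 2.59 and 2.38 (-0.21). Mrpl30 and Mrpl50 each had a further probe below the background limit on both arrays, and these read 0.95 and 1.03. The direction of these genes thus rests on their brighter probes.

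The remaining large subunit genes lay between -0.17 (Mrpl46) and 0.29 (Mrpl40). They include proteins with well known roles. Mrpl45, which tethers the ribosome to the inner membrane, had levels of 2.25 and 2.32 (ratio 0.073). Mrpl58, a peptidyl-tRNA hydrolase that frees stalled ribosomes, had 3.81 and 3.70 (ratio -0.11). Mrpl22, another protein of the exit tunnel, stood at 2.23 and 2.22, and Mrpl2 and Mrpl3, core proteins around the peptidyl transferase centre, at ratios of 0.17 and 0.16. Their differences are all smaller than the error of a single spot.

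In the small subunit the highest ratio was that of Mrps31, a protein found only in mitochondrial ribosomes. Its level was 0.43 with OS and 1.30 with melatonin, a log2 ratio of 0.87 (1.83-fold, software error 0.20). Mrps31 was the second member in rank after Mrpl21, and it too was read by 1 spot. Mrps14 followed with levels of -0.75 and -0.23 (ratio 0.52, 1.44-fold). Mrps5, which lies at the messenger RNA entrance, came next with -0.93 and -0.59 (ratio 0.34). Mrps22, mutated in mitochondrial disease, stood at -0.63 and -0.46 (0.17), Mrps27, a pentatricopeptide repeat protein, at -2.69 and -2.53 (0.16) and Mrps11 at -1.18 and -1.04 (0.14).

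The lowest small subunit ratios, with the subunit taken by symbol, were those of Mrps15 and Mrps30. Mrps15 had levels of -0.66 and -1.21 (ratio -0.54, 1.46-fold lower). Mrps30, whose protein sits in the large subunit, had 2.60 and 2.15 (ratio -0.45, 1.37-fold lower). Mrps33 stood at 3.08 and 2.84 (-0.23) and Mrps34 at 2.06 and 1.88 (-0.18). Mrps21 stood at 0.43 and 0.32 (-0.11) and Mrps25 had a ratio of -0.018. All 6 lay inside the 2-fold range. Mrps12, a protein of the decoding centre, had nearly the same level on both arrays, 1.346 and 1.348. The other small subunit genes lay between 0.0011 (Mrps26) and 0.11 (Mrps23).

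The scanner software estimates an error for each spot, and carried to the log2 ratio it was 0.20 to 0.36 for the 50 members read by 1 spot. For genes read by several spots the errors were combined as independent, which gave 0.070 for Mrps5 and 0.14 for Mrpl54. More than 2 errors of the gene above 0 were 7 of 64 members, against 7.39% of all measured genes. They were Mrpl21, Mrps5, Mrps31, Mrpl54, Mrpl18, Mrps14 and Mrpl55. Mrps5 passed only through its smaller combined error, and the ratios of its own spots had an SD of 0.28. More than 2 errors below 0 were 4 members, Mrpl4, Mrpl10, Mrps15 and Mrps30, against 5.11% of all genes. Shares of this size are close to the background in both directions. The error covers neither cultures nor labelling.

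Repeated readings of a probe exist for 8 members. They belong to Mrpl13, Mrpl32, Mrpl53, Mrps5, Mrps16, Mrps18c, Mrps23 and Mrps35, each with 9 or 10 usable spots. The ratios of these 8 genes lay between 0.0021 and 0.34, with an SD of 0.10, against an SD of 0.30 over the 49 members read by 1 spot other than Mrpl21. Their median, 0.083, lay near that of the family. The signals of the arrays overlapped for every one of these probes.

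The Mrps5 spots read from -1.05 to -0.81 on the OS array (median -0.94) and from -0.99 to -0.23 on the melatonin array (median -0.53). The arrays overlapped between -0.99 and -0.81, which is most of the OS range. Of 9 spots 7 were higher on the melatonin array, with a mean ratio of 0.34 ± 0.28 (SD, 9 spots). The Mrps16 spots, for a protein mutated in mitochondrial disease, had medians of 3.652 on both arrays, a mean ratio of 0.053 ± 0.088 (SD, 10 spots). The Mrpl32 spots, for a protein that the inner membrane m-AAA protease must trim before assembly, read from 1.98 to 2.33 and from 1.83 to 2.74 (0.095 ± 0.23, SD, 9 spots). Except for Mrps5, each of these 8 mean ratios was smaller than the SD between its own spots.

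Mrps35 spots read from 0.095 to 0.51 and from 0.27 to 0.60 and had a mean ratio of 0.10 ± 0.12, with 8 of 9 spots above 0. Mrps23 spots read from 0.92 to 1.17 and from 0.95 to 1.40, with a mean ratio of 0.11 ± 0.17 and 7 of 10 above 0. The groups of spots overlapped in both. Mrps18c gave 0.071 ± 0.16 over 9 spots and Mrpl53 0.053 ± 0.11 over 9. Mrpl13 spots, for a protein of the large subunit, read from 3.13 to 3.35 and from 3.03 to 3.64, with a mean ratio of 0.0021 ± 0.19 and 4 of 9 above 0. Single spots of this probe thus read from -0.24 to 0.38 for a gene with no mean difference.

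**Figure D3:**
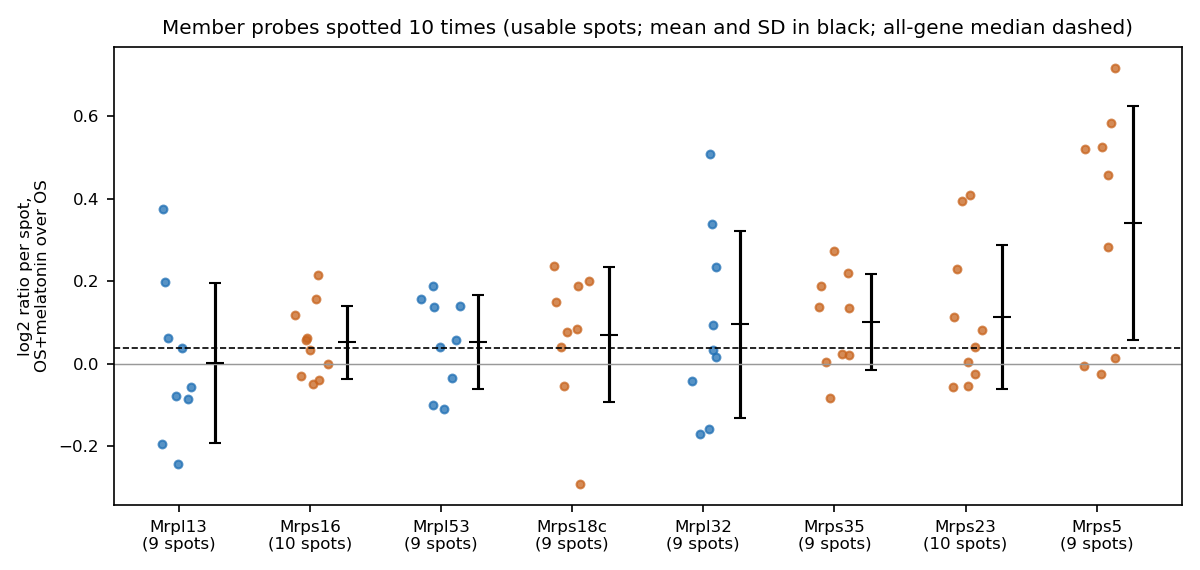
Log2 ratio of the melatonin array over the OS array for each usable spot (vertical axis) of the 8 member probes printed 10 times (horizontal axis), with the mean and SD between spots in black and the median of all measured genes (0.039) dashed. Spots of Mrpl13 spread from -0.24 to 0.38 around a mean near 0, and the Mrps5 mean of 0.34 is the highest.

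Where 2 probes of a member were measured on both arrays, their ratios could be set side by side. Of 7 such genes, 5 had probes of the same sign (71.4%), against 53.6% of 1124 genes with 2 or more measured probes over the whole array. The median difference between the highest and lowest probe was 0.088 against 0.23. These shares were not matched for the number of probes, and a gene with more probes has more room to differ. Mrps16 (0.053 and 0.063) and Mrpl17 (0.11 and 0.13, gene levels 2.14 and 2.26) had close readings. Mrpl2 had 0.14 and 0.20 (gene levels 1.64 and 1.82) and Mrpl40 0.16 and 0.41 (0.94 and 1.22). Mrpl41 gave -0.096 and 0.37, and Mrps21 gave -0.46 and 0.24, so these genes have no settled direction. Mrpl35 had a further probe that passed the limit with OS alone, with a ratio of 0.12 against -0.14 for the measured probe.

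Some members have named pseudogenes, whose likeness to the probes was not measured. The RefSeq gene table names 40 mitoribosomal pseudogenes, not all of them for members. At least 1 is named for 21 of the 66 members, and 9 are named for Mrpl30. None is named for Mrpl21, Mrps31, Mrpl4, Mrpl10 or Mrps15. The files give no probe sequences, so binding to a pseudogene transcript was not tested.

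The proteins of the mitochondrial ribosome that carry other symbols followed the same picture. All 5 on the array were measured: Dap3 (0.028), Chchd1 (0.094), Ptcd3 (0.11), Gadd45gip1 (0.15) and Aurkaip1 (0.18). Their median was 0.11, and 0 of 5 were 2-fold higher or lower. All 5 lay above 0, as did 57.6% of all genes.

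Factors that build and modify the mitochondrial ribosome had a median of 0.081 over 21 measured genes of 26 on the array, 15 of them above 0 and 0 past 2-fold. The highest were Rpusd4, which makes pseudouridine in the large ribosomal RNA (0.37), the GTPase gene Noa1 (0.30) and Ngrn (0.27). The lowest were Nsun4, a methyltransferase of ribosomal RNA (-0.25), Eral1, a chaperone of the small subunit RNA (-0.20) and Rcc1l (-0.11). Every factor of this list lay within 1.5-fold.

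The translation factors that work on the mitochondrial ribosome had the highest median of the lists, 0.19 over 10 measured genes of 12. Mtres1, a rescue factor of stalled ribosomes, stood at 0.60 (1.52-fold higher), the membrane insertase gene Oxa1l at 0.34 and the elongation factor gene Gfm1 at 0.33. The release factor gene Mtrf1l stood at -0.63 (1.55-fold lower), the initiation factor gene Mtif3 at -0.35 and Guf1 at -0.010. Of the 10 genes 7 lay above 0 and 0 were past 2-fold, so the list held ratios of either sign.

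Enzymes that charge mitochondrial transfer RNAs had a median of -0.0062 over 15 measured genes of 16, with 7 above 0 and 0 past 2-fold. The sign of this median turned positive in 7 of 10 alternative settings, so it has no direction. Wars2 (0.38), Yars2 (0.25) and Nars2 (0.21) were highest, and Tars2 (-0.39), Sars2 (-0.18) and Gatc (-0.12) lowest. Gatc encodes a subunit of the amidotransferase that converts glutamate on a charged transfer RNA to glutamine, and the others named are synthetases that load an amino acid onto its transfer RNA.

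Mitochondrial transcription and RNA processing genes had a median of 0.094 over 23 measured genes of 24, 15 of them above 0. Pnpt1, the mitochondrial polynucleotide phosphorylase, was the 1 gene of this list past 2-fold (ratio 1.16, 2.24-fold higher by 1 spot). Trmt10c, a subunit of the mitochondrial RNase P, was lowest at -0.31. Polrmt, the mitochondrial RNA polymerase, stood at -0.080 and Tfam, which packs and activates mitochondrial DNA, at 0.31.

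Cytosolic ribosomal protein genes and nuclear-coded subunits of oxidative phosphorylation, the other gene groups closest in function, had medians of 0.049 over 77 genes and 0.072 over 73. Ratios above 0 were found in 45 of 77 and 46 of 73. The SD was 0.29 and 0.28, close to the 0.28 of the mitoribosomal genes without Mrpl21. Past 2-fold were 1 cytosolic ribosomal gene, Rps20 (1.17), and 0 oxidative phosphorylation genes.

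The extremes of the oxidative phosphorylation list were Ndufs7, a subunit of complex I, at 0.73 and at the low end Cox8b (-0.99), Cox6a2 (-0.75) and Cox6b2 (-0.67). Cox8b and Cox6a2 are the cytochrome oxidase isoforms of heart and skeletal muscle. The muscle markers measured on both arrays, Actc1 (-0.60) and Myh8 (-0.71), were also lower on the melatonin array, with linear levels that summed to 14.6 and 9.57. Most of both sums came from Actc1, with log2 levels of 3.76 and 3.16 beside -0.015 and -0.72 for Myh8. All 5 muscle markers passed the background limit with OS and 2 with melatonin, an array with a higher detection floor (-3.47 against -4.37) on which fewer probes passed in all. The part of muscle cells in these values was not tested, and with bulk RNA fewer cells of a type and less RNA per cell cannot be told apart.

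**Figure D4:**
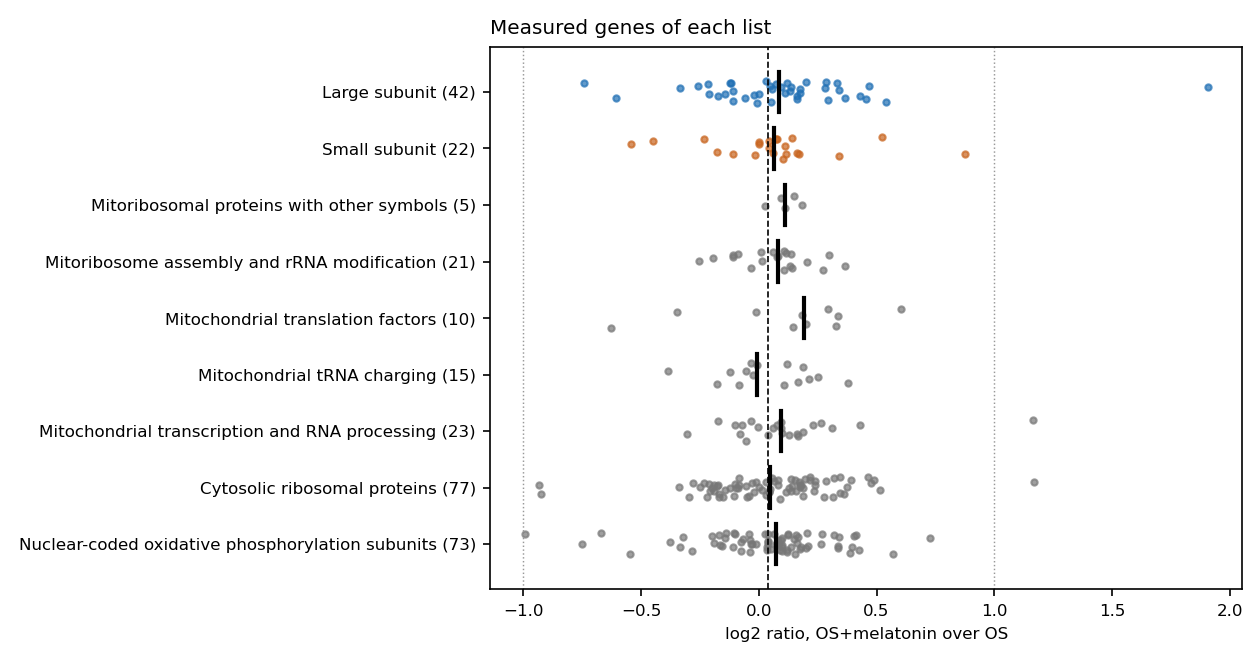
Log2 ratio of the melatonin array over the OS array (horizontal axis) for the measured genes of each list, with their number in brackets; bars mark list medians, the dashed line the median of all measured genes (0.039) and dotted lines 2-fold. List medians run from -0.0062 to 0.19, and Mrpl21 at 1.91 is the highest gene of any list.

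NRF1, ETS factors such as GABPA, and YY1 are known regulators of nuclear genes for mitochondrial proteins. RefSeq windows of 300 bases (250 before and 50 after the gene start, build GRCr8) were matched by symbol for 54 of the 66 members. The others were Mrpl13, Mrpl15, Mrpl16, Mrpl19, Mrpl21, Mrpl35, Mrpl38, Mrps12, Mrps22, Mrps24, Mrps34 and Mrps35. The windows below are those of the highest and lowest ratio in each subunit among members with a window, shown 5′ to 3′ so that both ends can be compared. Capitals mark matches, on either strand, to exact 10-base motifs of NRF1 and YY1, named here without their letters, and to CCGGAAG (ETS), GGGCGG (the GC box of SP factors) and CCAAT (the CCAAT box).
Mrps31: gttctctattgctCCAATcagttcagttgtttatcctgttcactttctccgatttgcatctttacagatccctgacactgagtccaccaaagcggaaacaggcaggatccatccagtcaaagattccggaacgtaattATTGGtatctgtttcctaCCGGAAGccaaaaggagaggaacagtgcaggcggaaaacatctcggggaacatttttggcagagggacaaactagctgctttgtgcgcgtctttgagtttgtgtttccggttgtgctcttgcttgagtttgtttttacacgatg
Mrpl18: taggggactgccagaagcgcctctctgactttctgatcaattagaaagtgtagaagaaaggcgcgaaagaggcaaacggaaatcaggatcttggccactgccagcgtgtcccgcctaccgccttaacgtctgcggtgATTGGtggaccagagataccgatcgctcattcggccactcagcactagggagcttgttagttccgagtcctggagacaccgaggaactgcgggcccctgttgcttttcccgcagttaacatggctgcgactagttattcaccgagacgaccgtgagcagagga
Mrps15: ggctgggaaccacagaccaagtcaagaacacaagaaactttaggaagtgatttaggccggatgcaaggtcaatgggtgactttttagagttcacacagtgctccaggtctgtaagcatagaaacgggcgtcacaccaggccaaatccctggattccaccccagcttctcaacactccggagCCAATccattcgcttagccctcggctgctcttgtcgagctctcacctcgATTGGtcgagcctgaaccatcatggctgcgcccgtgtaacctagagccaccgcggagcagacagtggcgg
Mrpl4: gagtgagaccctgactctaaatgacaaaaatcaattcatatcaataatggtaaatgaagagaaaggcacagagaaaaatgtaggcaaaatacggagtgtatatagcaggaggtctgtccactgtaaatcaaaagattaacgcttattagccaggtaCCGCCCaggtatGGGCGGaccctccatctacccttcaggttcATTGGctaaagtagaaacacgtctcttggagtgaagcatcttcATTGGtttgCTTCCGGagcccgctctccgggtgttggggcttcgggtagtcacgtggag
These windows lie at chr16:76324016-76324315 on the minus strand (Mrps31) and, on the plus strand, at chr1:50384702-50385001 (Mrpl18), chr5:143605891-143606190 (Mrps15) and chr8:27815521-27815820 (Mrpl4), all in GRCr8.

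Each of the 4 windows held at least 1 CCAAT box. The Mrps31 window (ratio 0.87) had an ETS match and 2 CCAAT boxes, and the Mrpl4 window (ratio -0.74) had an ETS match, 2 GC boxes and 2 CCAAT boxes. The ETS match thus occurs at both ends of the range. A match is a run of letters and no evidence of a bound factor.

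Over the 54 windows, ETS letters were found in 19 (35.2%), against 19.9% of 6803 windows of measured genes and 11.2% of 19005 windows of protein-coding genes. The NRF1 letters were found in 4 windows (7.41%), against 2.01% and 1.14%, and the YY1 letters in 6 (11.1%), against 2.63% and 1.54%. GC boxes were in 28 (51.9%), against 63.2% and 43.1%, and CCAAT boxes in 25 (46.3%), against 38.7% and 38.4%. The TATA box letters TATAAA were in 7 (13.0%), against 7.04% and 13.1%. The lists closest in function had shares near some of these. In 65 windows of measured oxidative phosphorylation genes, ETS letters were in 30.8%, NRF1 letters in 6.15% and YY1 letters in 12.3%. In 62 windows of measured cytosolic ribosomal genes they were in 30.6%, 0% and 4.84%. The ETS share is thus not particular to the mitoribosomal genes, nor are the NRF1 and YY1 shares beside oxidative phosphorylation genes. No test of these shares was run.

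The ratios of members with and without each motif were set side by side, with no test. The 18 measured members with ETS letters had a median ratio of -0.029 and the 34 without them 0.12. With YY1 letters the median was -0.049 over 6 members and without them 0.065 over 46. The 3 measured members with NRF1 letters had a median of 0.12 and the 49 without them 0.055. For the GC box the medians were 0.058 (27 members) and 0.073 (25), for the CCAAT box 0.076 (25) and 0.053 (27), and for the TATA box 0.14 (7) and 0.058 (45). The medians with a motif thus lay above those without it for 3 motifs and below for 3. Ratios of members with ETS letters ran from -0.74 to 0.87, the whole range of members with a window.

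The place of Mrpl21 at the top of the family held under each setting tried. Its ratio was 1.93 under quantile normalization, 1.92 with equal medians of detected probes, 1.89 after loess correction, 1.92 in the authors' own processed values and 1.59 (3.00-fold) under normexp background correction. It ranked 1 among the members in all 10 alternatives, and Mrps31 was next in each, between 0.83 and 0.89. The median of the family stayed above 0 in each, from 0.042 after loess correction to 0.10 under normexp. The median of all genes moved alongside, from 0.0055 to 0.091 in the same settings, so the family lay 0.036 and 0.013 above it. With no filter on dim probes the median of all genes rose to 0.16 and the family, at 0.086, lay below it.

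**Figure D5:**
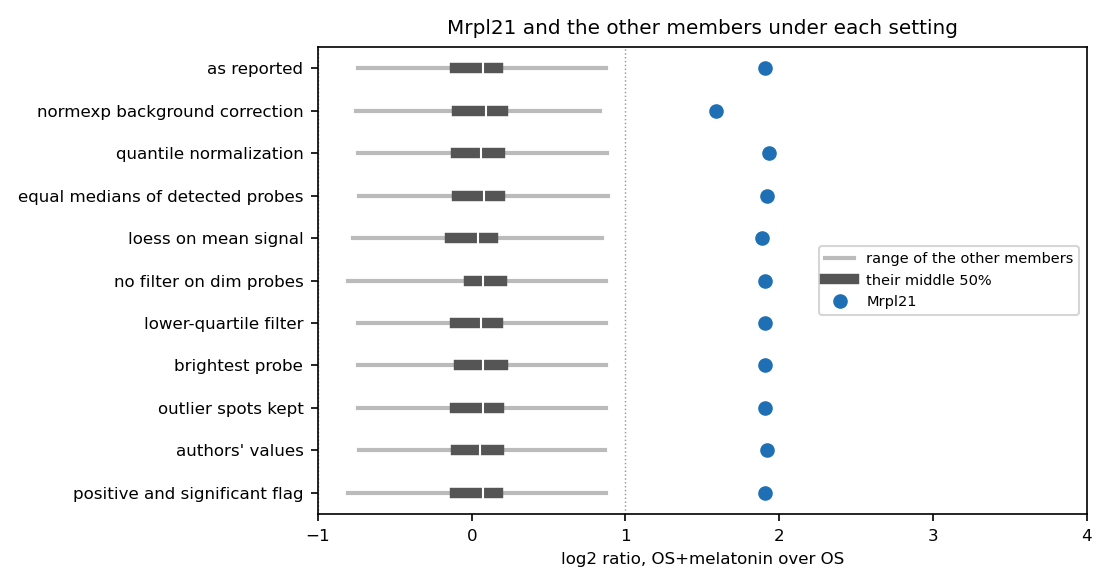
Log2 ratio of Mrpl21 (points) beside the range (thin line), middle 50% (thick line) and median (white mark) of the other members, as reported and under each of 10 alternative settings. Mrpl21 stays between 1.59 and 1.93, and no other member is above 0.89.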

How the data were processed

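Total RNA was labelled with Cy3 and read on 1 Agilent array per group, per the labels' protocols. The deposited intensity of each spot comes from Agilent Feature Extraction 11.0.1.1, with array design 028282 (annotation build rn4), background-subtracted and spatially detrended, per the file headers. The authors also deposited a table of log2 values, with a normalization that the sources used here do not give.

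Outlier spots (937 of 42877 outside the controls, 6 of them in members) were left out. The level of a spot is log2 of its processed signal less the array's 75th percentile (taken over probes). Repeated spots gave 1 mean per probe. A gene is the mean of its probes that passed the software's background limit in at least 50% of spots on each array. Unversioned RefSeq accessions were matched to a GRCr8 gene table, used for names and gene order; 18005 of 30367 probes received a symbol. The error of a spot's ratio combined the software's errors of both signals, and errors of several spots or probes of a gene were combined as independent. A gene was counted as higher or lower at 2-fold. With 1 array per group no p-value is given, and the number of arrays sets the limit on precision.

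Members and lists were chosen with earlier results of these data known. Values on both arrays were to be given for Mrpl21, members past 2-fold, the 6 highest and 6 lowest of each subunit and members with several probes or repeated spots, and for other lists the members past 2-fold or the 3 highest and lowest; other genes were chosen after their values were seen. 1 gene under this rule is not reported here. Alternatives were normexp (offset 50, limma 3.58.1 in R 4.3.3), quantile, equal-median and loess normalization, other filters, flags, probe choices and thresholds, and the authors' values. The gene steps were tested on simulated data with 9210 genes, where 100% of genes changed 4-fold and 1 of 8946 unchanged genes were called. Of genes changed 1.5-fold 10% were called, and a family shift set at 0.3 was found as 0.26. The noise was set in advance and both simulated arrays shared their background flags, so these counts give no error rate for the real arrays. Calculations used Python 3.11.15.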

Additional observations from a re-analysis of the deposited data

How the results depend on the processing

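Mrpl21 fell to 1.59 under normexp correction, and its distance from the median of the other members to 1.49. The cause was not tested. A 1.5-fold threshold counted 2 members as higher (Mrpl21 and Mrps31) and 2 as lower (Mrpl4 and Mrpl10), against 2.03% and 2.64% of all genes, and a 3-fold threshold left Mrpl21. The large minus small subunit difference stayed between 0.0080 and 0.077 over 12 alternatives. The other list medians, the transfer RNA list excepted, kept their sign in all 10. Among the other 63 members, 8 changed sign under normexp, 4 after loess correction and 3 with no filter on dim probes. No sign changed with outlier spots kept or with the authors' values. Mrpl10 turned to 0.45 with no filter and with the positive and significant flag, where its dim probe is averaged in. No paired analysis was possible because each group has 1 array. Leaving out a replicate was not possible for the same reason. Whether any ratio would recur in another culture was not tested.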

Other observations

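Several members share a start region with a gene read in the opposite direction, so their values can be set beside those of a physical neighbour. In the GRCr8 windows, 16 of the 54 members had such a partner with its start within 1000 bases, giving 15 pairs, of which 10 were measured on both sides. Mrpl18 (0.54) lay beside Tcp1, a subunit of the cytosolic chaperonin (0.38), and Mrpl32 (0.095) beside Psma2, a proteasome subunit (0.63). Mrpl47 (0.47) lay beside Ndufb5, a subunit of complex I (0.028), and Mrpl49 (0.055) beside Fau, which encodes a cytosolic ribosomal protein (0.053). Mrpl30 (-0.26) lay beside Mitd1 (0.65), the widest gap of the measured pairs. Mrpl46 (-0.17) and Mrps11 (0.14), both of the mitochondrial ribosome, are partners of each other and had ratios of opposite sign. Of the 10 pairs 6 had ratios of the same sign. Over all measured genes 57.6% had a ratio above 0, so many unrelated genes share a sign. The share of all genes with such a partner, and of such pairs with the same sign, was not measured. These counts are therefore not a result about the members. No test was run on these pairs.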
